A study of Mus musculus with 113 samples.

Results

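The embryos described here were injected with siRNAs against *Nr1h3* alone and collected at the 8-cell (8C) stage. They were chosen by their labels: the 2 libraries of 8C *Nr1h3* KD embryos and the 2 libraries of the negative control (NC) of the same single KD experiment, 4 of the 113 samples of the series. The embryos came from C57BL/6N females 5 to 6 weeks old crossed with PWK/PhJ males, and the labels give every group as wild type. The labels give 5 μM siRNA for the *Nr1h3* KD and 5 μM control siRNA for its NC, whereas the methods give 20 μM for the control siRNA. The *Nr1h3* siRNAs were a mixture of 3, so a single siRNA was not tested alone. Each library was made by Smart-seq2, a full-length RNA-seq protocol for few cells, from a pool of 5 to 10 embryos, and the labels do not say whether 2 libraries of a group came from separate injections. In such pools, fewer cells of a type and less RNA per cell cannot be told apart. The p-values rest on the spread between the 2 pools within each group, shared over the 10 libraries of an experiment that were fitted together. That spread may be technical. Levels are FPKM, fragments normalised for transcript length and library size, as the authors deposited them. For comparison, 6 libraries of the other single KD groups (*Nr5a2*, *Rarg* and *Nr2c2*, each against 1 receptor) and 10 libraries of the triple KD (3KD) experiment, in which 3 of the 4 siRNA sets were combined and 1 was left out, were used. The 3KD groups are labelled 5 μM and their NC 15 μM. Libraries of the KD of all 4 receptors (4KD) at the 4-cell (4C) and 8C stages were also read, labelled 5 μM against 20 μM in their NC. At the 2-cell (2C) stage the *Nr5a2* KD and its NC, both labelled 20 μM, were read.

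*Nr1h3* encodes LXRα, a nuclear receptor that binds oxysterols, the oxidised derivatives of cholesterol. LXRα pairs with an RXR partner on DNA elements made of spaced AGGTCA-like hexamers, holds corepressors there without ligand and recruits coactivators with it. In liver and macrophages it is known for inducing genes of cholesterol efflux, lipoproteins and fatty acid synthesis, and its close relative LXRβ (*Nr1h2*) is expressed more widely.

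The KD left little *Nr1h3* RNA and few other differences that stood out from the spread between libraries. *Nr1h3* was 9.32 and 12 FPKM in the NC libraries and 0.547 and 0.240 FPKM in the *Nr1h3* KD libraries. *Snrpn*, a paternally expressed imprinted gene for a spliceosomal protein, was the next protein-coding gene by p, with 171 and 181 FPKM in NC and 42.6 and 33.7 FPKM in KD. Of the tested genes of cholesterol synthesis and uptake, 12 were above and 10 below 0, and of those of LXR-driven fatty acid synthesis 4 and 7, with 0 past an unadjusted p under 0.05 in either list.

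*Nr1h3* (mm9 chr2:91024218-91042991, minus strand, a protein-coding gene whose exons overlap those of Gm13783 on the same strand in GENCODE vM1) fell from a mean of 10.7 ± 1.89 FPKM (SD, n = 2) in NC to 0.394 ± 0.217 FPKM (SD, n = 2) in KD. The NC libraries lay well above the KD libraries, and the means differ by a factor of 27.1. The 2 KD libraries kept 5.11% and 2.24% of the NC mean. On the log2(FPKM + 1) scale the difference was -3.06 (SE 0.490, 95% interval -4.13 to -2, limma), with an unadjusted p of 4.11e-05 and an adjusted p of 0.116 over the 9360 genes tested.

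The level of *Nr1h3* was read in the 32 libraries with FPKM files. At 8C, the 10 libraries with *Nr1h3* siRNA ranged from 0.207 to 2.51 FPKM and the 14 without it from 4.18 to 23.0 FPKM, so the sets did not overlap. Among the groups with the siRNA, the single KD (mean 0.394 FPKM) and the 3KD that spared *Nr5a2* (0.373 and 0.222 FPKM) had the lowest means and overlapped. The 3KD that spared *Rarg* (0.519 and 1.73 FPKM), the 3KD that spared *Nr2c2* (0.207 and 2.51 FPKM) and the KD of all 4 receptors (4KD, 1.45 and 1.11 FPKM) also overlapped one another. Among the groups without it, the *Nr2c2* KD had the lowest mean, with 7.03 and 4.18 FPKM, and its range overlapped that of the *Rarg* KD (9.76 and 6.48 FPKM). The NC of the single KD experiment lay within the range of the *Nr5a2* KD (21.5 and 8.02 FPKM). Earlier stages gave 15.0 and 22.3 FPKM in 4C NC, 1.61 and 8.35 FPKM in 4C 4KD, 4.32 and 19.7 FPKM in 2C NC, and 11.5 and 12.2 FPKM in 2C *Nr5a2* KD. The 4C 4KD libraries were thus below both 4C NC libraries. The higher of them (8.35 FPKM) was above the lowest libraries without the siRNA at other stages (4.18 FPKM at 8C and 4.32 FPKM at 2C).

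**Figure D1:**
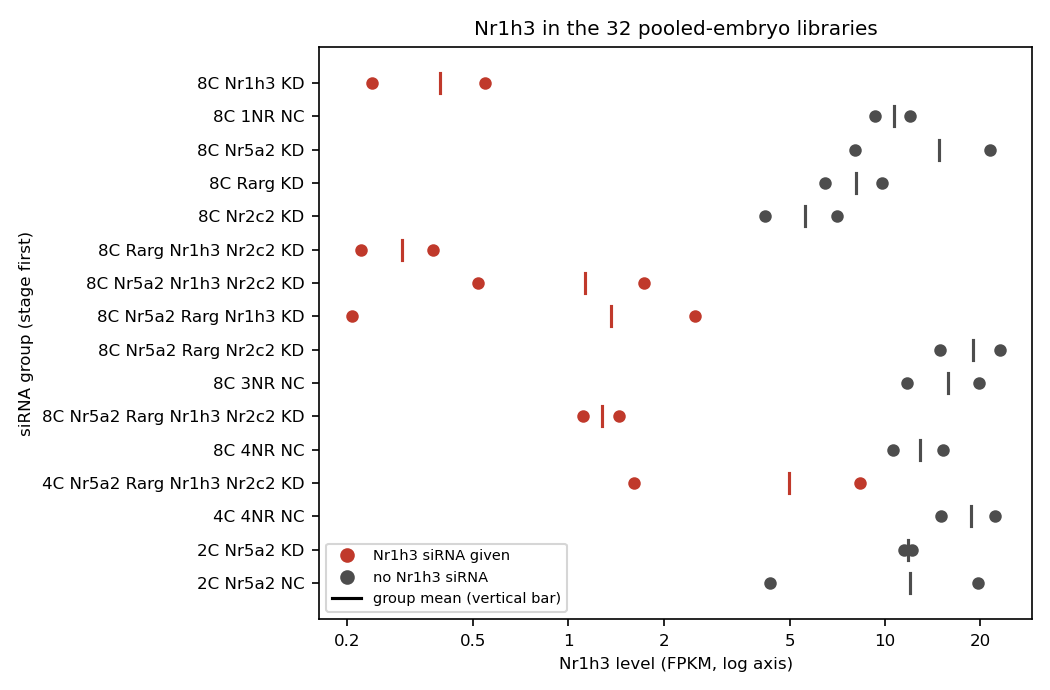
*Nr1h3* level in FPKM (x axis, log scale) in the 2 libraries (points) of each of the 16 siRNA groups (y axis), with the group mean as a vertical bar; red groups received *Nr1h3* siRNA. At 8C the 10 red libraries lie at or below 2.51 FPKM and the 14 others at or above 4.18 FPKM.

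The FPKM of the 4 libraries summed to 443773 to 498600, and 8617 to 9032 genes reached 1 FPKM. Read counts were not in the files, so the depth of a library is unknown in reads, and a relative depth, read from the most common ratio of FPKM between 0.01 and 0.5 and set to 1 in NC replicate 1, lay between 1.05 and 1.42 in the other 3. That ratio held for 21.5 to 29.7% of the genes compared, so whole reads could not be recovered. Over the 9360 genes, log2 values correlated at r = 0.952 between the NC libraries, 0.961 between the KD libraries and 0.946 to 0.956 between a KD and an NC library. These are correlations across genes, which are not independent replicates, and they describe the libraries only. Of 13 cumulus and granulosa cell markers, all were listed at 0 in both NC libraries, and the highest value in KD was 0.319 FPKM for *Fst*, so the somatic cells that surround the oocyte were near 0. *Pou5f1*, a pluripotency factor of the blastomeres, was at 138 and 167 FPKM in NC and 136 and 142 FPKM in KD.

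Genome-wide, 9360 genes had a mean of at least 1 FPKM in the NC or the KD group. At the limits of the study's methods (adjusted p under 0.01 with a log2 difference of 2 or more either way), 1 gene differed, 0.0107% of those tested, and the same 1 gene (0.0107%) passed an adjusted p under 0.05. At an unadjusted p under 0.05, 303 genes or 3.24% differed. If a log2 difference of 1 or more either way was also required, 238 genes (2.54%) were left, of which 121 genes were higher (1.29%) and 117 lower (1.25%). The median difference over all genes was 0.006 on the log2 scale. Leaving out KD replicate 2 raised the number of higher genes to 207 and left 0 genes at either adjusted limit. Genes counted this way are called higher or lower at the unadjusted limits, which is a description and not a significance call.

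**Figure D2:**
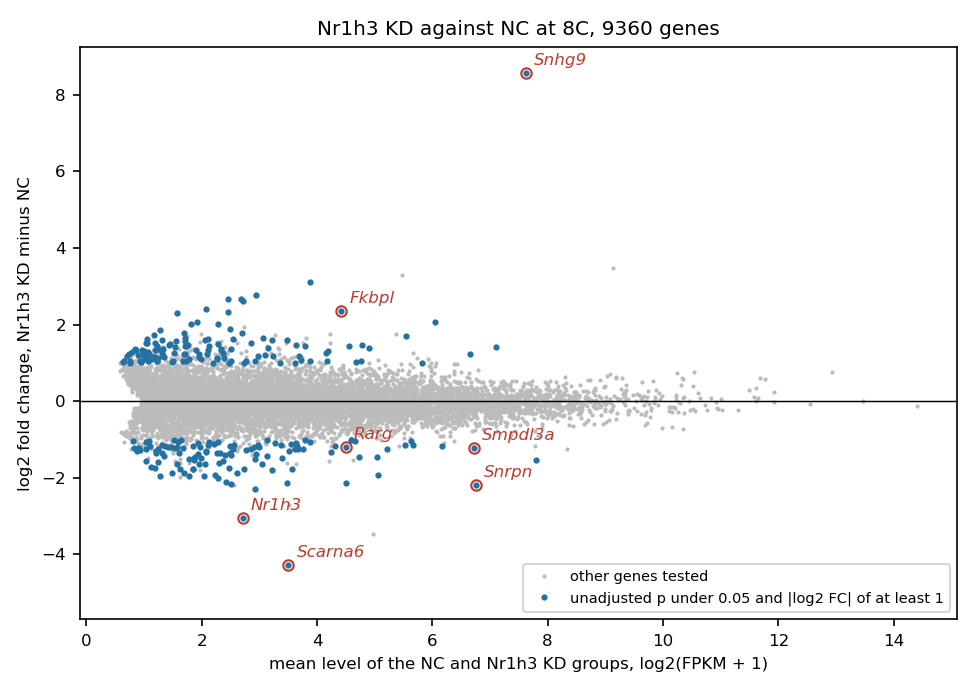
Log2 fold change of *Nr1h3* KD minus NC on the log2(FPKM + 1) scale (y axis) against mean level (x axis) for each of the 9360 genes tested; blue points are the genes at the unadjusted limits (121 higher, 117 lower), and circled genes are described in the text. *Nr1h3* lies at -3.06 and *Snrpn* at -2.19.

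The 1 gene past the limits was not *Nr1h3* but *Scarna6*, a small Cajal body RNA of 265 bases (mm9 chr1:89681131-89681395, plus strand) within *Atg16l1*. *Scarna6* was 30.4 and 11 FPKM in the NC libraries and was listed at 0 in both KD libraries (adjusted p = 0.00628, limma). It was also listed at 0 in the 6 libraries of the other single KD groups and in the 10 libraries of the 3KD experiment. Over the alternatives the adjusted p ran from 0.00201 to 0.359, and it was 0.0180 without NC replicate 1, 0.105 without KD replicate 1 and 0.0878 without KD replicate 2. The gene with the highest log2 difference (8.57, unadjusted p = 0.000161, adjusted p = 0.302 and 1.78e-05 to 1 over the alternatives), *Snhg9*, a small nucleolar RNA host gene, was listed at 0 in both NC libraries and stood at 291 and 495 FPKM in the KD libraries. *Snhg9* (mm9 chr17:24856476-24856910, minus strand) shares exon sequence with *Rps2*, a ribosomal protein gene on the other strand, and Smart-seq2 does not mark strand, so reads of both cannot be told apart. *Snhg9* ranged from 0 to 446 FPKM in the other single KD libraries.

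*Snrpn* (mm9 chr7:67127388-67285105, minus strand, protein-coding) was 4.62 times lower in KD, at 38.1 ± 6.30 FPKM (SD, n = 2) against 176 ± 7.16 FPKM (SD, n = 2) in NC. The log2 difference was -2.19 (SE 0.355, 95% interval -2.96 to -1.41), with an unadjusted p of 4.74e-05 and an adjusted p of 0.116 (limma). Both KD libraries were also below the 6 libraries of the other single KD groups, which ranged from 86.0 to 150 FPKM. The difference from the mean of these groups was -1.64 with an unadjusted p of 0.000114. All 6 of these libraries were themselves below both NC libraries. *Snurf*, which is transcribed from the same locus on a shared transcript, was 9.40 and 9.80 FPKM in NC and 5.58 and 7.77 FPKM in KD, with a log2 difference of -0.48 (95% interval -1.35 to 0.38, unadjusted p = 0.249). How Cufflinks divided fragments between the overlapping *Snrpn* and *Snurf* models is not known, so the split of the locus between both names is uncertain.

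*Snrpn* was followed in the libraries that share no sample with this comparison, a step chosen after its values in the single KD experiment were seen. In the 3KD experiment, the 6 libraries with *Nr1h3* siRNA held 75.5 and 80.1 FPKM (*Nr5a2* spared), 105 and 112 FPKM (*Rarg* spared) and 98.2 and 71.6 FPKM (*Nr2c2* spared). The 4 libraries without it held 135 and 173 FPKM (NC) and 123 and 203 FPKM (*Nr1h3* spared), so every library with the siRNA was below every library without it. *Snurf* was also lower without overlap in the 3KD experiment, at 4.69 to 6.29 FPKM with the siRNA and 6.63 to 11.2 FPKM without it. In the 4KD experiment at 8C, *Snrpn* was 87.0 and 102 FPKM in KD and 187 and 205 FPKM in NC, again without overlap. At 4C, the 4KD libraries (24.5 and 61 FPKM) and the NC libraries (105 and 50.4 FPKM) overlapped. At 2C, where neither group got *Nr1h3* siRNA, *Snrpn* was 13.6 and 10.3 FPKM in NC and 70 and 47.3 FPKM in *Nr5a2* KD. *Snrpn* thus also differed without overlap between groups that lacked this siRNA. The NC mean was 1.98 times the KD mean in the 3KD that spared *Nr5a2* and 2.07 times in the 4KD, against 4.62 times in the single KD. The fitted log2 difference was -0.97 (unadjusted p = 0.0325) for the 3KD that spared *Nr5a2* against its NC, and -0.72 (unadjusted p = 0.0612) for the mean of the 2 3KD groups given *Nr5a2* and *Nr1h3* siRNAs (*Rarg* or *Nr2c2* spared) against the 3KD group that spared *Nr1h3*. Both had an adjusted p of 1 in limma. With the replicate number as a block, the unadjusted p was 0.00885 for the first and 0.0196 for the second. Without the block, the first had an unadjusted p of 0.0566 with no trend, 0.0818 with only the groups compared, 0.0986 without 3NR NC replicate 2, and of 0.0881 and 0.0676 without replicate 1 and replicate 2 of the 3KD that spared *Nr5a2*. The unadjusted p of the second was 0.0346 with no filter and 0.0393 with quantile normalization. The second was -0.82 (unadjusted p = 0.0291) with all 3 groups given *Nr1h3* siRNA, -1.08 (0.0244) without replicate 1 of the group that spared *Nr1h3*, -0.37 (0.347) without its replicate 2, and -0.84 (0.0494) without replicate 1 of the group that spared *Nr2c2*. Between experiments the ranges met, since the 10 8C libraries with the siRNA reached 112 FPKM and the 14 without it started at 86.0 FPKM.

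Over the same 9360 genes, the libraries with *Nr1h3* siRNA were all below the libraries without it for 65 genes in the single KD experiment (0.694%, 2 libraries against 8) and for 9 genes in the 3KD experiment (0.0962%, 6 against 4). Both held for 2 genes (0.0214%), *Nr1h3* and *Snrpn*, and the same 2 were also lower without overlap in the 4KD, where 1909 genes (20.4%) were. In the other direction, 332 genes (3.55%) were above in the single KD experiment, 10 (0.107%) in the 3KD experiment and 1 gene, *Traf2*, an adaptor of TNF receptor signalling, in both. These counts rest on FPKM without further scaling. Against the other single KD groups the median log2 difference over all genes was 0.198, and 69.1% of genes were higher. *Traf2* had a log2 difference of 0.63 in the single KD (unadjusted p = 0.156), and no gene was higher without overlap in all 3 experiments. The 4KD and 3KD embryos also received siRNAs against other receptors, and in the 4KD the *Nr1h3* siRNA cannot be told apart from them.

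**Figure D3:**
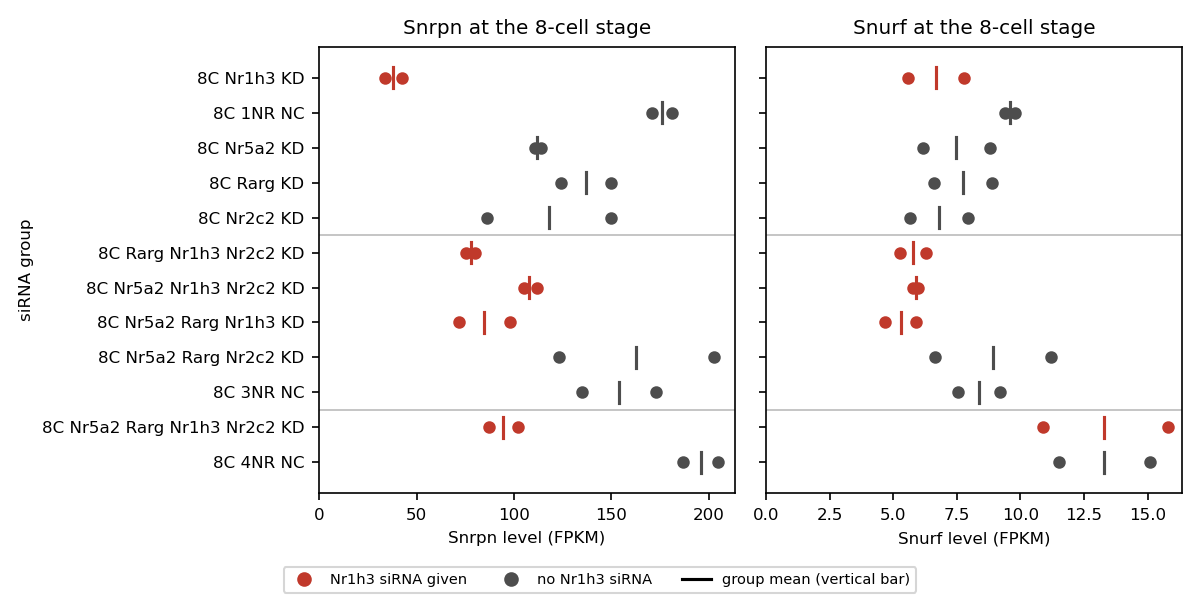
*Snrpn* (left) and *Snurf* (right) levels in FPKM (x axes) in the 2 libraries (points) of each 8C group (y axis, grouped by experiment with grey lines), with group means as vertical bars; red groups received *Nr1h3* siRNA. Within each experiment the red *Snrpn* points lie below the grey ones, at 33.7 and 42.6 FPKM in the single KD and 71.6 to 112 FPKM in the 3KD. The *Snurf* points overlap in the single KD and the 4KD. In the 3KD the red *Snurf* points (4.69 to 6.29 FPKM) also lie below the grey ones (6.63 to 11.2 FPKM).

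Among the 12 lower genes named by p (from 67 that met the same conditions), 9 are left beside *Nr1h3*, *Snrpn* and *Scarna6*. *Mgst3*, a microsomal glutathione S-transferase, was 6.59 and 6.95 FPKM in NC and 0.766 and 1.10 FPKM in KD (log2 difference -2.01, unadjusted p = 0.000459). The other single KD libraries ranged from 1.77 to 16.6 FPKM, all above *Nr1h3* KD (-1.79, unadjusted p = 0.000231). In the 3KD that spared *Nr5a2* the difference of *Mgst3* from NC was 0.75 (unadjusted p = 0.309). *Fam92a*, a gene linked to cilia, was 6.98 and 7.98 FPKM in NC and 1.06 and 2.12 FPKM in KD, below the 8 other libraries. *Spryd7* went from 85.8 and 111 FPKM to 35.1 and 51.7 FPKM, and *Esp24*, of the exocrine gland-secreted peptide family, from 14.7 and 19.1 FPKM to 1.66 and 5.13 FPKM. Both were below all 8 other single KD libraries, and the unadjusted p rose past 0.05 for *Spryd7* without KD replicate 1 (0.0654), and for *Esp24* without NC replicate 2 (0.0555) or KD replicate 1 (0.0924). In the 3KD that spared *Nr5a2*, *Spryd7* differed from NC by -0.05 and *Esp24* by 2.64.

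The other lower genes overlapped with at least 1 other single KD library. *Klf4*, a pluripotency factor, was 5.40 and 8.81 FPKM in NC and 1.61 and 2.62 FPKM in KD (log2 difference -1.36, unadjusted p = 0.00580, and 0.0524 without NC replicate 2 or 0.0522 without KD replicate 1). In the *Nr5a2*, *Rarg* and *Nr2c2* KD libraries *Klf4* ranged from 0.675 to 4.34 FPKM, all below NC. *Tbx20*, a T-box factor, was 16.6 and 17.9 FPKM in NC and 3.86 and 4.91 FPKM in KD, and ranged from 1.01 to 14.7 FPKM in the other KD libraries. *Apoa1*, the main protein of HDL particles, was 8.18 and 4.58 FPKM in NC and 0.389 and 1.59 FPKM in KD (log2 difference -1.92, unadjusted p = 0.00194). *Apoa1* was between 0.472 and 3.92 FPKM in the other KD libraries, so all 8 KD libraries were below both NC libraries. *Marcks*, an actin-linked kinase substrate, and *Otud1*, a deubiquitinase, had log2 differences of -1.88 and -1.38 from NC and of -0.60 and -0.57 from the other KD groups.

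Of the 12 higher genes named by p (from 57 that met the same conditions), *Snhg9* was given above. *Fkbpl*, an immunophilin-like co-chaperone, was 3.97 and 8.64 FPKM in NC and 31.3 and 37.4 FPKM in KD (log2 difference 2.35, SE 0.509, unadjusted p = 0.000589). Its KD values were above all 6 libraries of the other single KD groups (4.34 to 14.9 FPKM, difference 1.64, unadjusted p = 0.00207). *Hemt1* (0.741 and 1.56 FPKM in NC, 5.25 and 5.82 FPKM in KD) was likewise above them. In the 3KD that spared *Nr5a2*, *Fkbpl* differed from NC by -0.01 and *Hemt1* by 0.45. *Mtfr2*, a mitochondrial fission regulator, *Pex11a*, a peroxisome proliferation factor, and *Ifitm2*, an interferon-induced membrane protein, were higher than NC by 2.06, 1.59 and 1.42 on the log2 scale. Against the other single KD groups the same 3 genes differed by 0.30, 0.18 and -0.36, and both NC libraries were below all 8 KD libraries. Without NC replicate 1 the unadjusted p of *Ifitm2* was 0.0570. *Rgcc*, a cell cycle regulator, *Ifngr1*, the interferon gamma receptor, *Card6*, *Serhl*, *Tmco2* and *Bcdin3d* had log2 differences of 1.49 to 2.32 from NC. The unadjusted p rose past 0.05 without NC replicate 1 for *Ifngr1* (0.0731), *Card6* (0.0651), *Serhl* (0.0702) and *Bcdin3d* (0.0788), and without NC replicate 2 for *Tmco2* (0.0626). It did so without KD replicate 1 for *Card6* (0.0966), *Tmco2* (0.0561) and *Bcdin3d* (0.0675), and without KD replicate 2 for *Ifngr1* (0.0512) and *Serhl* (0.0737).

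**Figure D4:**
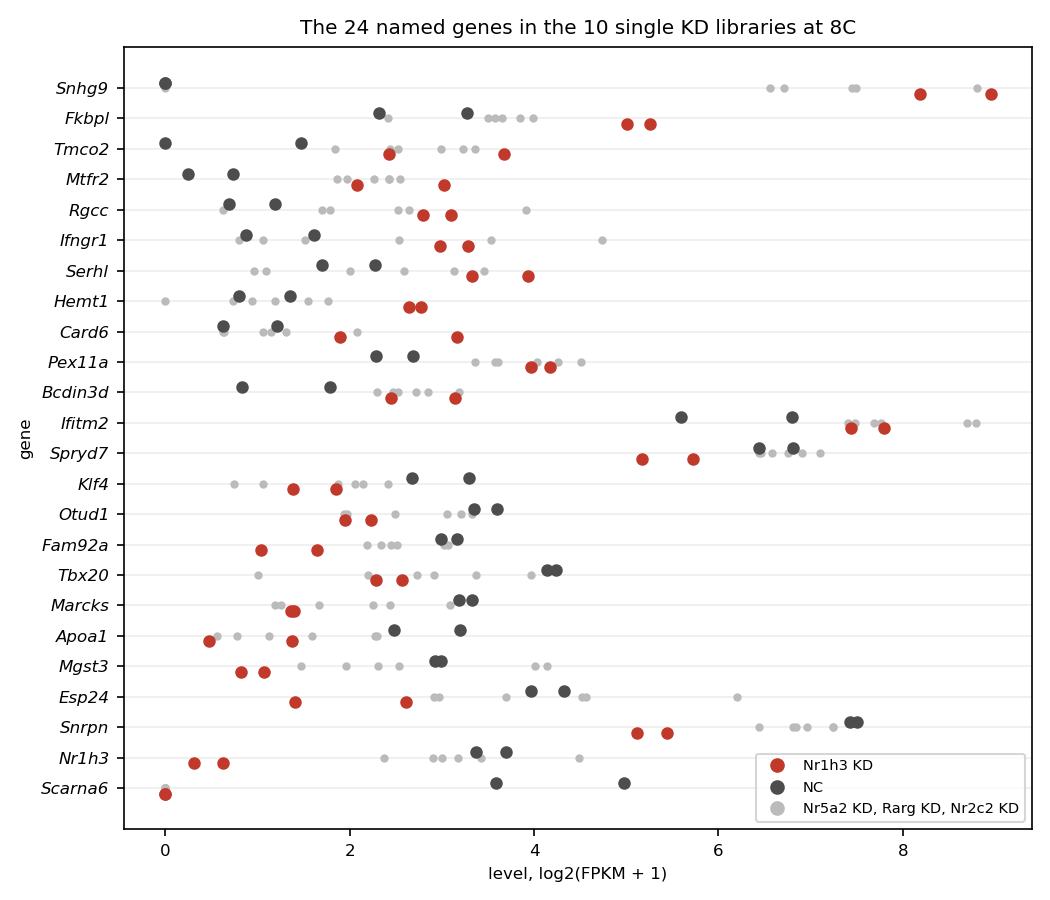
Levels of the 24 named genes (y axis) as log2(FPKM + 1) (x axis) in the 10 libraries of the single KD experiment; red points are the 2 *Nr1h3* KD libraries, dark points the 2 NC libraries and pale points the 6 libraries of the other single KD groups. *Nr1h3*, *Snrpn*, *Mgst3*, *Fam92a*, *Spryd7* and *Esp24* lie below the 8 other libraries and *Fkbpl* and *Hemt1* above, whereas *Klf4*, *Pex11a* and *Ifitm2* lie among the pale points.

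Of the 121 higher genes at the unadjusted limits, 29 were above all 8 other libraries of the single KD experiment, and of the 117 lower genes, 16 were below them. Over all 9360 genes tested, 332 (3.55%) were above and 65 (0.694%) below these 8 libraries. The 121 and 117 genes were picked with the same 2 KD libraries, so their shares are a description only. In the comparison with the other single KD groups themselves, which shares the *Nr1h3* KD libraries but not the NC, 327 of 10040 genes (3.26%) met the unadjusted limits, 260 higher and 67 lower (2.59% and 0.667%), with 0 at an adjusted p under 0.05 and 736 (7.33%) at an unadjusted p under 0.05 (limma). The median of all genes was 0.198 there, and after median-ratio scaling, which brought it to 0.002, 103 were higher and 102 lower. *Nr1h3* itself differed by -2.76 in this comparison (unadjusted p = 1.95e-05).

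The 2 comparisons within the 3KD experiment share no library with the single KD. Each held 0 genes at an adjusted p under 0.05 in limma, with 253 and 212 at an unadjusted p under 0.05 (2.67% and 2.1%). *Nr1h3* differed by -3.65 in the 3KD that spared *Nr5a2* against its NC (unadjusted p = 0.000149, adjusted p = 0.748) and by -3.25 between the 2 3KD groups given *Nr5a2* and *Nr1h3* siRNAs and the 3KD group that spared *Nr1h3* (unadjusted p = 0.000105, adjusted p = 0.616). Of the 238 genes at the unadjusted limits in the single KD, 197 were also tested in the first, and 95 (48.2%) had the same sign, against 47.7% of all 8736 genes tested in both. In the second, 209 were tested and 126 (60.3%) had the same sign, against 53.4% of 8826 genes. At the same limits, 10 genes were shared with the first (4.2% of the single KD genes and 4.22% of the 237 3KD genes, which were 2.51% of those tested), and 4 of them moved the same way, *Nr1h3*, *Rsph9*, *Zfp952* and 1700019M22Rik. With the second, 9 were shared (3.78%, and 4.79% of 188 genes, which were 1.87% of those tested) and 7 moved the same way, *Nr1h3*, *Vim*, *Nrtn*, *Rhox9*, *Msantd4*, *Pnliprp2* and 1700013H16Rik. With the replicate block, 417 and 300 genes met the same limits in the 2 comparisons.

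The receptors that work with LXRα were measured next. *Nr1h2*, which encodes LXRβ, was 49.7 and 51.3 FPKM in NC and 44.8 and 41.0 FPKM in KD. The KD libraries were below the NC libraries, but the log2 difference of -0.23 (95% interval -1.09 to 0.63, unadjusted p = 0.566, limma) was within the spread of the fit. In FPKM, which are per transcript length, the level of *Nr1h2* was above that of *Nr1h3* in both NC libraries. The RXR partners were below *Nr1h2* in FPKM, with *Rxra* at 3.10 and 3.06 FPKM in NC and 2.03 and 3.52 FPKM in KD, and *Rxrb* at 6.09 and 11.5 FPKM in NC and 7.01 and 3.17 FPKM in KD. In NC the values of *Rxrb* overlapped those of *Nr1h3* (9.32 and 12 FPKM). *Rxrg* was listed at 0 in the 4 libraries. Of 13 corepressors and coactivators, 11 were tested and 0 passed an unadjusted p under 0.05, with a median log2 difference of -0.18 against 0.006 for all genes. *Tbl1x*, *Tbl1xr1* and *Hdac3*, parts of the corepressor complex, had differences of -1.20, -0.94 and -1, each with an interval that included 0.

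The other targets of the siRNA sets in the study were also compared. *Rarg*, which encodes the retinoic acid receptor RARγ, was 28.0 and 33.0 FPKM in NC and 13 and 12.2 FPKM in *Nr1h3* KD, a 2.42-fold lower mean without overlap (log2 difference -1.20, 95% interval -2.06 to -0.35, unadjusted p = 0.00943, adjusted p = 1, limma). Without NC replicate 2 its unadjusted p was 0.0564. *Rarg* was 38.5 and 23.0 FPKM in *Nr5a2* KD and 18.9 and 19.1 FPKM in *Nr2c2* KD, both above the *Nr1h3* KD libraries, and 3.64 and 5.47 FPKM in *Rarg* KD. The *Nr2c2* KD libraries were also below both NC libraries. In the 3KD that spared *Rarg*, which got *Nr1h3* siRNA, *Rarg* was 23.8 and 4.54 FPKM, against 17.6 and 2.18 FPKM in its NC. *Nr5a2* was 50.2 and 48.8 FPKM in NC and 34.8 and 34.9 FPKM in KD (log2 difference -0.49, unadjusted p = 0.189). *Nr2c2* was 7.81 and 12.2 FPKM in NC and 10.0 and 8.91 FPKM in KD (log2 difference -0.04, unadjusted p = 0.913). Of 10 other nuclear receptors tested among 41, 0 passed, with a median of -0.34.

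The genes listed here as LXR targets of sterol efflux and lipoproteins were mostly too low to test. Whether each of them is an LXR target in mouse embryos was not tested. Of 14, 5 reached 1 FPKM in a group, 1 was lower at an unadjusted p under 0.05 and 0 higher, with a median of -0.14. *Abca1* and *Abcg1*, the cholesterol exporters, were at most 0.587 and 0.0965 FPKM in the 4 libraries, and *Abcg5*, *Abcg8* and *Cyp7a1* were listed at 0 in all 4. The lower gene was *Smpdl3a* (mm9 chr10:57514141-57531636, plus strand), a sphingomyelinase-like phosphodiesterase, at 130 and 160 FPKM in NC and 47.3 and 78.9 FPKM in KD. The log2 difference was -1.23 (95% interval -2.08 to -0.37, unadjusted p = 0.00886, adjusted p = 1, limma), and the unadjusted p was 0.0607 without NC replicate 2 and 0.0999 without KD replicate 1. In the other single KD libraries *Smpdl3a* was 55.8 to 98.5 FPKM, so these too lay below NC, and the difference from them was -0.25. It was 0.40 in the 3KD that spared *Nr5a2* and 0.18 between the 2 3KD groups given *Nr5a2* and *Nr1h3* siRNAs and the 3KD group that spared *Nr1h3*. *Apoc1* (70.4 and 85.6 FPKM in NC, 70.5 and 58.8 FPKM in KD) and *Apoe* (13.5 and 15.5 FPKM in NC, 27.4 and 9.14 FPKM in KD), both apolipoproteins, overlapped between groups.

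Of 16 LXR targets of fatty acid synthesis, 11 were tested and 0 passed an unadjusted p under 0.05, with a median of -0.31 and a range of -0.63 to 0.41. *Srebf1*, the factor through which LXR is known to induce this pathway, was 1.24 and 0.864 FPKM in NC and 0.971 and 1.44 FPKM in KD. *Scd1*, the stearoyl-CoA desaturase, was 11.5 and 14.6 FPKM in NC and 14.3 and 11 FPKM in KD (95% interval of the log2 difference -0.94 to 0.86). *Fasn*, the fatty acid synthase, had an interval of -0.85 to 0.94. *Lpcat3*, a phospholipid acyltransferase, was 87.9 and 76.0 FPKM in NC and 54.3 and 61.6 FPKM in KD (-0.49, unadjusted p = 0.237). All 11 intervals lay within 2 on the log2 scale and 3 within 1.

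Genes of cholesterol synthesis and uptake were mostly expressed and lay on both sides of 0. Of 27, 22 were tested, 12 were above and 10 below 0, and 0 passed an unadjusted p under 0.05, with a median of 0.03. *Fdft1*, squalene synthase, was 136 and 165 FPKM in NC and 153 and 153 FPKM in KD. *Ebp*, a sterol isomerase, was 57.9 and 31.8 FPKM in NC and 85.1 and 90.4 FPKM in KD (1.01, unadjusted p = 0.0735), and *Stard4*, a sterol carrier, 7 and 5.34 FPKM in NC and 0.515 and 2.55 FPKM in KD (-1.62, unadjusted p = 0.0534). Of 6 tested genes of oxysterol and cholesterol handling among 13 and 16 of lipid droplets and fatty acid use among 22, 0 passed, with medians of -0.06 and -0.30. *Fabp5*, a fatty acid carrier, came nearest at 32.1 and 38.8 FPKM in NC and 9.01 and 14.5 FPKM in KD (-1.54, unadjusted p = 0.0582). *Ch25h* and *Cyp27a1*, enzymes that make oxysterols, were listed at 0 in the 4 libraries.

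**Figure D5:**
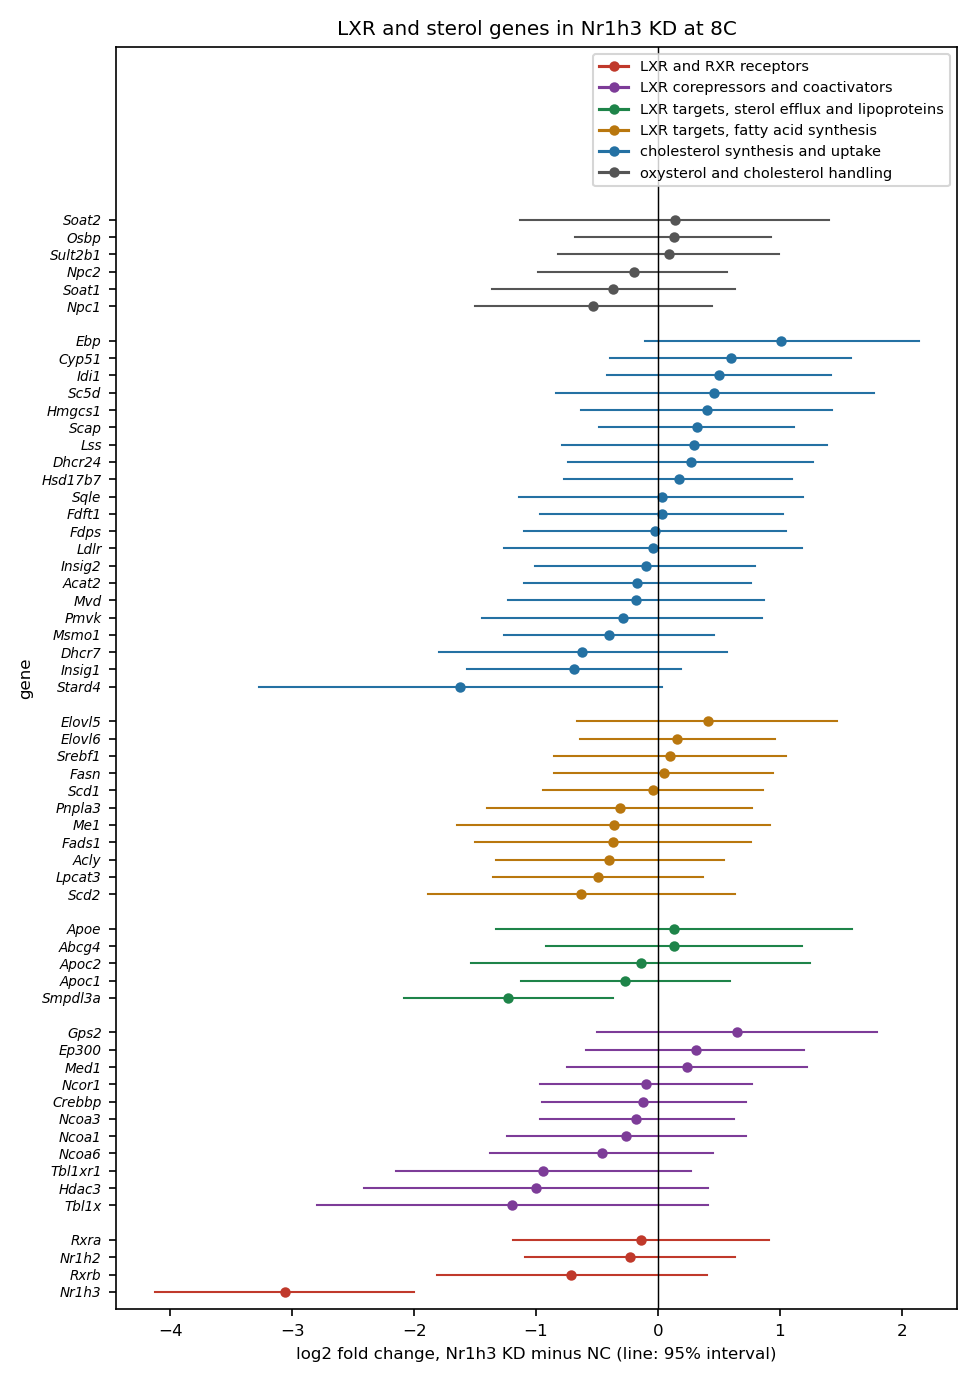
Log2 fold change of *Nr1h3* KD minus NC (x axis; points) with 95% intervals from limma (lines) for the tested genes (y axis, all but 1) of 6 lists, in 1 colour per list. *Nr1h3* and *Smpdl3a* have intervals that leave out 0, and the points of cholesterol synthesis and uptake scatter on both sides of 0.

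The upstream sequence of these genes was searched for the hexamer AGGTCA and for the LXR element, 2 copies of it in direct repeat with any 4 bases between them, on both strands, in the 250 bases before the gene start in RefSeq (GRCm38.p6, 1 start per gene). The hexamer was present in 10 of 91 lower genes (11%), 11 of 87 higher genes (12.6%) and 768 of 7121 genes tested (10.8%) with a window, against 13.8% of all 27025 windows. The full element was in 0 of the 7121 and in 3 of the 27025 windows (0.0111%). Among the genes described above that had a window listed, *Rarg*, *Nr5a2* and *Esp24* held the hexamer, and *Nr1h3* and *Snrpn*, for example, did not. Not every gene described above had a window listed. *Gata6* and *Smpdl3a* were among those without one, so nothing is said of their sequence. The 1 RefSeq start used for a gene need not be the 5′ end of its GENCODE model. For *Snrpn* it lies far upstream of the mm9 gene given above, allowing for the shift between builds. The *Snrpn* window therefore does not describe the sequence before that gene model. The windows of *Rarg* (chr15:102257523-102257772, minus strand) and *Snrpn* (chr7:60450178-60450427, minus strand) are shown 5′ to 3′ to let both be compared, with the hexamer, read here on the opposite strand, in capitals.
*Rarg*: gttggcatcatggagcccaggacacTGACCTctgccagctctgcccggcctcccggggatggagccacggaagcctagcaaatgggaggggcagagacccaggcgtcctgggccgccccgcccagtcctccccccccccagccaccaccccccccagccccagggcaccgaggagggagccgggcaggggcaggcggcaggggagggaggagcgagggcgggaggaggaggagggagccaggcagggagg
*Snrpn*: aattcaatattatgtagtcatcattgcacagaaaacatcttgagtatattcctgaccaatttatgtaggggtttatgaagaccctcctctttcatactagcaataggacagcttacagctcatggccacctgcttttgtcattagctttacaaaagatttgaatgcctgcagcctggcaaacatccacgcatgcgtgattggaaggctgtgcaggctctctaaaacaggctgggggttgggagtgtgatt
These letters are a description of the window, and a match is not a binding site. Only exact copies were counted, whereas LXR elements are made of AGGTCA-like hexamers. A window without a match may therefore still hold an element.

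Gene lists of the blastomeres were compared in the same way. Of 14 pluripotency factors tested, *Klf4* was lower and 0 were higher at an unadjusted p under 0.05 (median -0.23), and *Nanog* was 15.2 and 19.4 FPKM in NC and 27.6 and 19.5 FPKM in KD (0.42, unadjusted p = 0.288). *Klf5*, a factor of blastomeres that precedes lineage choice, was 327 and 247 FPKM in NC and 192 and 186 FPKM in KD (-0.59, unadjusted p = 0.125), and all 6 libraries of the other single KD groups were also below NC. Of 9 trophectoderm regulators, *Lcp1* was lower (2.76 and 6.48 FPKM in NC, 0.964 and 1.15 FPKM in KD, unadjusted p = 0.0306), and of 3 primitive endoderm genes *Gata6*. *Gata6*, a primitive endoderm factor, was 55.6 and 67.8 FPKM in NC and 21.5 and 34.8 FPKM in KD (-1.14, 95% interval -2.19 to -0.08, unadjusted p = 0.0366). In the other single KD libraries *Gata6* was 9.86 to 45.1 FPKM, all below NC. The unadjusted p of *Gata6* was 0.0566 under median-ratio scaling, 0.0760 without NC replicate 1, 0.154 without NC replicate 2 and 0.224 without KD replicate 1. That of *Lcp1* was 0.0563 without a filter, 0.225 without NC replicate 2, 0.107 without KD replicate 1 and 0.0815 without KD replicate 2.

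Genes of compaction, polarity and the Hippo pathway had 19 tested members with 0 past an unadjusted p under 0.05, 16 below 0 and a median of -0.22, *Cdh1* (E-cadherin) being 32.8 and 41.6 FPKM in NC and 23.0 and 20.7 FPKM in KD. Over all genes 50.6% were above 0. In the 3KD that spared *Nr5a2*, 16 of 20 compaction genes were above 0 (median 0.17, all genes 0.155). The lists of 2-cell burst genes (7 tested, median -0.09), oocyte transcripts (14, -0.22), RNA sensing and interferon response (8, -0.23), siRNA machinery (10, -0.03) and genes next to *Nr1h3* (4, 0.13) likewise held 0 genes past an unadjusted p under 0.05. In the p53 response, 15 were tested, 12 were above 0 (median 0.22) and *Bbc3*, a proapoptotic gene, passed (0 and 0.316 FPKM in NC, 3.28 and 1.51 FPKM in KD, unadjusted p = 0.0296). Against the other single KD groups 9 of this list were above and 7 below 0 (median 0.2, all genes 0.198). In the 3KD that spared *Nr5a2*, 13 were above and 1 below. Between the 3KD groups with and without *Nr1h3* siRNA, 6 were above and 9 below. The unadjusted p of *Bbc3* was 0.0572 without a filter, 0.135 without NC replicate 1, 0.0622 without NC replicate 2 and 0.174 without KD replicate 1. *Bbc3* ranged from 0.292 to 3.16 FPKM in the other single KD libraries.

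The study's own lists of genes activated at a stage gave small counts. Of its 8C genes, 45 were tested, 2 were higher and 2 lower at an unadjusted p under 0.05, and 32 of 45 were below 0, with a median of -0.39 against 0.006 for all genes. The same list had 32 above and 12 below 0 against the other single KD groups (median 0.46, all genes 0.198), and 28 above and 16 below in the 3KD that spared *Nr5a2* (median 0.21, all genes 0.155). The 2 higher were *Xist*, the RNA that coats the inactive X chromosome (1.86 and 0 FPKM in NC, 11.5 and 8.22 FPKM in KD, unadjusted p = 0.0118), and *Car4*, a carbonic anhydrase (4.90 and 0.264 FPKM in NC, 10.0 and 6.88 FPKM in KD, unadjusted p = 0.0234). *Xist* ranged from 0.475 to 18.2 FPKM in the other single KD libraries, and the sexes of the pooled embryos are not given by the labels. The 2 lower were *Apoa1* and *Ddah1*, which breaks down methylated arginines (19.4 and 12.8 FPKM in NC, 6.27 and 7.45 FPKM in KD, unadjusted p = 0.0311). Without NC replicate 2 the unadjusted p was 0.138 for *Xist* and 0.357 for *Car4*, and without NC replicate 1 it was 0.187 for *Ddah1*. Without KD replicate 1 it was 0.0757 for *Xist*, 0.131 for *Car4* and 0.130 for *Ddah1*, and without KD replicate 2 it was 0.0571 for *Car4* and 0.0728 for *Ddah1*.

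Over all genes, 1.70% were higher and 1.54% lower at an unadjusted p under 0.05. Of 495 late 2C genes, 10 were higher and 8 lower (median 0.04), of 992 genes of the major wave of zygotic genome activation 22 and 13 (median 0.02). Of 37 ICM genes 3 were higher and 4 lower (median -0.28), larger shares than over all genes in both directions. Of 41 zygote genes, 22 early 2C genes, 13 4C genes and 30 genes of the minor wave, 0 were higher or lower, with medians of 0.28, 0.08, 0.09 and 0.13. *Nr1h3* is itself among the late 2C and the major wave genes.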

How the data were processed

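The authors sequenced Smart-seq2 libraries, aligned the reads to mm9 with TopHat and deposited FPKM per gene from Cufflinks 2.2.1. These deposited FPKM values carry no read counts, so the study's edgeR test on counts could not be repeated. FPKM rest on the genes each library holds, so a change in abundant genes moves all the others, and short transcripts have uncertain values.

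Files of 32 libraries (24006 genes each) were read. The 10 libraries of the single KD experiment were fitted together, as were the 10 of the 3KD experiment. limma 3.58.1 (R 4.3.3) took log2(FPKM + 1) values, an intensity trend and Benjamini-Hochberg adjustment over all genes with a mean of at least 1 FPKM in a compared group. Folds on this scale understate changes of low genes. An exact permutation test of 2 against 2 libraries cannot go below p = 0.333 (2-sided), so none is given. Named genes were *Nr1h3* and its partners and siRNA targets, genes past an adjusted p of 0.05, the 12 per direction with the lowest p among non-overlapping genes of at least 5 FPKM that differed by 1 or more (log2), and list members. The members and the 28 gene lists were chosen with earlier results of these data known. The script was tested on simulated data with 200 changed genes per size. At a log2 change of 1, 0% of them met the study's limits or an adjusted p under 0.05. At 2, 0% met the study's limits and 50% an adjusted p under 0.05, and at 3, 72.5% and 88.5% did. Smaller changes could therefore go unseen at the adjusted limits. Alternatives covered the pseudocount, filters, scaling, the fit, the replicate block and leaving out each library. One gene of the cholesterol list, counted with it, is not reported here by name.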

Additional observations from a re-analysis of the deposited data

How the results depend on the processing

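The direction of *Nr1h3* in the *Nr1h3* KD held under every alternative run (-4.51 to -2.94, and -3.23 to -2.90 with a library left out), with an adjusted p of 0.0517 to 0.804. *Snrpn* ranged from -2.35 to -2.02, with an adjusted p of 0.0461 to 0.730. The 1 gene at the study's limits became 0 with a pseudocount of 0.1, no filter, a mean of at least 5 FPKM, a filter over the 5 groups, median-ratio scaling or quantile normalization, and 0 to 2 with a library left out (2 without NC replicate 2). Calls at an unadjusted p under 0.05 numbered 238 at a log2 fold change of 1 and 23 at 2. The 1 gene at an adjusted p under 0.05 became 0 with a pseudocount of 0.1, no filter or a mean of at least 5 FPKM, 3 with only the groups compared, and 0 to 3 with a library left out. With a mean of at least 5 FPKM, 54 genes were higher and 64 lower, and with a library left out 134 to 207 and 85 to 151.

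Against the other single KD groups, 0 genes became 1 with a pseudocount of 0.1 or no filter, and 0 to 1 with a library left out. Genes at the unadjusted limits went from 327 to 492 with a pseudocount of 0.1, 205 with median-ratio scaling, 217 with quantile normalization and 282 to 468 with a library left out. There *Nr1h3* was -4.16 with a pseudocount of 0.1 (adjusted p = 0.0425). In the 3KD that spared *Nr5a2*, 237 genes became 98 at a mean of at least 5 FPKM and 241 to 646 with a library left out, with 0 to 2 at an adjusted p under 0.05. Between the 2 3KD groups given *Nr5a2* and *Nr1h3* siRNAs and the 3KD group that spared *Nr1h3*, 188 became 64 at a mean of at least 5 FPKM and 210 to 699 with a library left out, with 0 to 1 at an adjusted p under 0.05, and 1 with no filter. The highest of these counts came without 3NR NC replicate 2 (646) and without replicate 2 of the 3KD that spared *Nr1h3* (699). The causes were not tested.

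Replicate numbers are shared between groups, and the labels do not say what a number marks. Deviations of same-numbered pools correlated at -0.038 to 0.138 in the single KD experiment and at 0.269 to 0.5 in the 3KD experiment, where all 10 pairs of groups were above 0.1. With the replicate block, the single KD gave 131 higher and 129 lower genes and *Nr1h3* -3.06 (adjusted p = 0.0786), and the 2 comparisons in the 3KD experiment gave 417 and 300 genes.

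Of the values for single genes, 1338 kept direction and side of the threshold, 60 moved past an unadjusted p of 0.05, 49 fell back and 12 changed sign, all of these with a library left out. With a library left out, *Rxra* ran from -0.43 to 0.15, *Nr2c2* from -0.33 to 0.25, *Gps2* from -0.11 to 1.41, *Abcg4* from -0.40 to 0.65, *Apoc2* from -0.82 to 0.54, *Soat1* from -0.85 to 0.12, *Spi1* from -0.06 to 0.65, *Acp2* from -0.27 to 0.14 and *Ddb2* from -0.27 to 0.20. With 2 libraries a group, the median interval reached 0.98 to either side on the log2 scale, and 1360 of 9360 intervals lay within 1.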
